A study of Homo sapiens with 3 samples.

Results

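The response of U87Mut cells to IGF1 was the difference in log2 brightness between 2 Cy3 channels, that of the array of cells given IGF1 and that of the array of cells in serum-free medium. All probes that are no controls and that the scanner software called well above background in Cy3 on both arrays were taken, which were 28934 of 58201 probes. A RefSeq transcript gave a gene name to probes of 15803 genes among these, of 25006 genes named on the array. U87 (U-87MG) is a human glioblastoma cell line. U87Mut 5 is 1 stable clone of it, selected with G418, that carries GFP-IGF1R1025x-1100x-1120x, a fusion of GFP and IGF1R in which the lysines that accept SUMO were changed. The labels call the receptor of this clone non-nuclear. The cells keep their own IGF1R and insulin receptor genes, and no array analysed here held cells without a transgene. The cells stood 24 h in serum-free medium or 24 h with 50 nM IGF1, and the array that completes the series held cells given IGF1 and OSI906, which inhibits IGF1R and the insulin receptor. The dose of OSI906 is 0.5 µM in the name of that sample and 500 µM in its medium field, and the labels and the Methods differ on how long it was given before IGF1. U87WT 5, a clone of the same line with the unchanged GFP-IGF1R, was labeled with Cy5 on every array, and the dyes were not swapped. Each condition was hybridized 1 time, so no difference below has a replicate error or a test, and differences are described by their size.

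IGF1R is a receptor tyrosine kinase of the cell surface that signals through IRS adaptors to PI3K and AKT, and through SHC and GRB2 to ERK. AKT keeps FOXO transcription factors out of the nucleus and acts through mTORC1 on translation and on SREBP factors, which drive genes of sterol and fatty acid synthesis. In glioma cells the pathway is studied for its part in growth, motility and metabolism. A part of the receptor can be moved to the nucleus after SUMO is attached, which is the step that the mutant was made to lack.

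Cy3 was dimmer on the IGF1 array. Median differences in raw log2 brightness between the IGF1 and serum-free arrays were -0.41 over the probes well above background and -0.34 over 10 spike-in control probes, and in Cy5 the probes well above background had 0.08. After quantile normalization of all 6 channels the same control probes were higher on the IGF1 array by 0.09 to 0.40. The 273 probes printed on 10 spots and free of marked spots had a median SD of the difference over their spots of 0.08, with quartiles of 0.07 and 0.10, and the probes of a gene with several of them had a median SD of 0.11 over 4261 genes. These spreads are technical and within 1 slide. The SD of the difference over probes was 0.13 under a mean log2 brightness of 7 and 0.22 from 7 to 9. It was 0.23 from 9 to 11, 0.23 from 11 to 13 and 0.27 over 13. The low spread of the dimmest probes is in part set by the offset of the background correction, which draws their changes toward 0. All 10 markers of a mesenchymal glioma line were measured. In serum-free medium VIM, CD44 and CAV1 were at 14.98, 14.34 and 13.08, but FN1 was at 8.14 and NES at 6.78. Of 5 glial genes GFAP, S100B and SOX2 were not above background, and OLIG2 and AQP4 were near the dim end, at 6.12 and 6.13. Measured were also 1 of 4 epithelial markers, 2 of 5 of blood and microglia, 2 of 3 of endothelium and 1 of 3 of melanocytes. The brightest of these in serum-free medium was EPCAM at 6.81. All 4 neuronal markers were measured, and 2 of them were not dim. In serum-free medium SNAP25 was at 9.26 and RBFOX3 at 8.78, both above FN1 and NES, while SYT1 was at 6.69 and STMN2 at 6.03. Their differences were 0.36 for RBFOX3, -0.01 for SYT1, -0.05 for STMN2 and -0.88 for SNAP25.

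The largest differences were on spots marked as not uniform. At a log2 difference of 1, which is 2-fold, 17 probes were higher with IGF1 (0.0588% of those measured) and 16 were lower (0.0553%). The scanner software marked spots of 8 of the 17 and of 4 of the 16 as not uniform. Of these 12 probes, 11 were marked on the IGF1 array, where they lay together between rows 112 and 119 and columns 69 and 71, and 1 was marked on the serum-free array. DND1 had a level of 6.52 in serum-free medium, 14.39 with IGF1 and 6.31 with IGF1 and OSI906, and its other probe differed by 0.04. ZP1 had levels of 9.12, 16.95 and 9.12 in the same order. Both were also far higher in the other dye of the same spot, by 10.71 for DND1 and 7.19 for ZP1. Genes with a marked spot were left out of the values below, which leaves 15772 genes by the brightest probe of each. Of these, 156 were higher by 0.5 or more (0.989%) and 260 were lower by as much (1.65%), and the median was -0.01. Below 0 were 53.3% of them, and the counts of each list are to be read beside these shares. Without normalization between channels the median of all named genes was -0.41, so the differences below are relative to the bulk of genes. Of the genes that the naming rule gave with values above 0, those from 0.04 to 0.71 were below 0 in that setting apart from ISG20, TNC, HSPA5, ORC1 and IGFBP4.

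**Figure D1:**
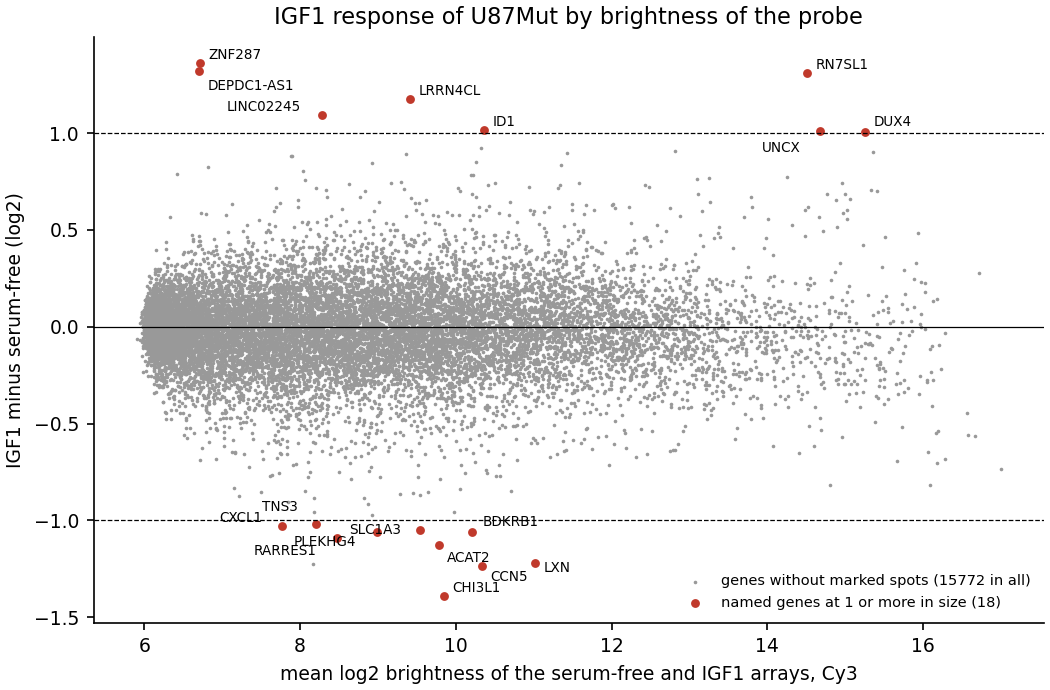
Each point is 1 of 15772 genes of U87Mut without marked spots, with the mean log2 brightness of its brightest probe in Cy3 on the horizontal axis and the IGF1 minus serum-free difference on the vertical axis. The dashed lines are at 1 and -1, and the 18 named genes beyond them (red) include CHI3L1 at -1.39 and ID1 at 1.02.

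The lowest gene with IGF1 was CHI3L1, which encodes a secreted chitinase-like protein that marks mesenchymal glioma. Its levels were 10.54 in serum-free medium, 9.15 with IGF1 and 10.59 with IGF1 and OSI906, a difference of -1.39 for IGF1 minus serum-free, or 0.381 of the brightness. CCN5, a matricellular protein of the CCN family, had levels of 10.96, 9.72 and 11.04 in that order (difference -1.24). LXN encodes latexin, an inhibitor of carboxypeptidases, and had 11.63, 10.41 and 11.71 (difference -1.22). In all 3 genes the IGF1 array was the low one and the other arrays were nearly the same. These 3 and ACAT2, described below, stayed past -1 under every alternative of processing.

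RARRES1, which retinoids induce, encodes a membrane protein related to latexin and is the next measured gene after LXN along chromosome 3. Its levels were 9.02 in serum-free medium, 7.93 with IGF1 and 9.30 with IGF1 and OSI906, a difference of -1.09. GFM1 on the side of LXN differed by 0.18 and IQCJ-SCHIP1 on the side of RARRES1 by -0.05, so these neighbors did not share the low level with IGF1. BDKRB1, the bradykinin B1 receptor, had levels of 10.74, 9.68 and 10.53 (difference -1.06). BDKRB2, the B2 receptor and its neighbor in the genome, had 9.04, 8.37 and 9.11 (difference -0.67), and ATG2B on the other side differed by -0.17. BDKRB2 and these neighbors were chosen after their values were seen.

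SLC1A3 encodes the glial glutamate transporter GLAST. By its brighter probe the levels were 10.07 in serum-free medium, 9.02 with IGF1 and 10.24 with IGF1 and OSI906, a difference of -1.05, but the other probe differed by -0.06 only. CXCL1, a chemokine that draws neutrophils, had levels of 8.28, 7.25 and 8.80 by its brighter probe (difference -1.03) and a difference of -0.33 by the other. Probes of 1 gene thus disagreed for both, and the mean over probes was -0.55 for SLC1A3 and -0.68 for CXCL1. PLEKHG4, a guanine nucleotide exchange factor for small GTPases, differed by -1.06 and -0.77 by its probes. TNS3, a tensin of focal adhesions, had levels of 8.71, 7.69 and 8.42 (difference -1.02). OLFML2A was at -1.22 by 1 probe and 0.21 by the other and is not counted among the named genes.

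Fewer genes were higher by 1 or more. ID1 encodes an inhibitor of basic helix-loop-helix transcription factors and is a usual target of BMP and SMAD signals. Its levels were 9.85 in serum-free medium, 10.87 with IGF1 and 9.56 with IGF1 and OSI906, a difference of 1.02. With IGF1 it was above both other arrays, and its relatives ID2, ID3 and ID4 differed by 0.19, 0.22 and 0.03. ID1 was under 1 in 6 of the 14 alternatives, down to 0.43 without normalization between channels. LRRN4CL, a membrane protein with little known of its role, had levels of 8.83, 10.00 and 8.96 (difference 1.18).

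RN7SL1, the RNA of the signal recognition particle, had levels of 13.86 in serum-free medium, 15.17 with IGF1 and 14.70 with IGF1 and OSI906, a difference of 1.31. UNCX and DUX4, both homeobox genes, had very bright probes, with 14.17, 15.18 and 14.42 for UNCX (difference 1.01) and 14.75, 15.76 and 14.79 for DUX4 (difference 1.01). DUX4 lies in repeated copies of near-identical sequence, so the source of its signal is uncertain, and the mean over its 5 probes was 0.29, from 0.04 to 1.01. The long noncoding LINC02245 had 7.74, 8.83 and 8.50 (difference 1.09). ZNF287, a zinc finger protein, and the antisense RNA DEPDC1-AS1 were near the dim end of the scale in serum-free medium, at 6.03 and 6.04, and were at 7.39 and 7.36 with IGF1. Their spots lay in columns 163 and 162 of the array. In U87WT the same spots differed by 0.04 and 0.14, but they were dim on both arrays. There ZNF287 was at 6.03 and 6.07, and DEPDC1-AS1 was not well above background on both arrays. Whether the place on the array played a part was not tested. Array reads of antisense genes depend on the strand of the probe, which was not examined.

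**Figure D2:**
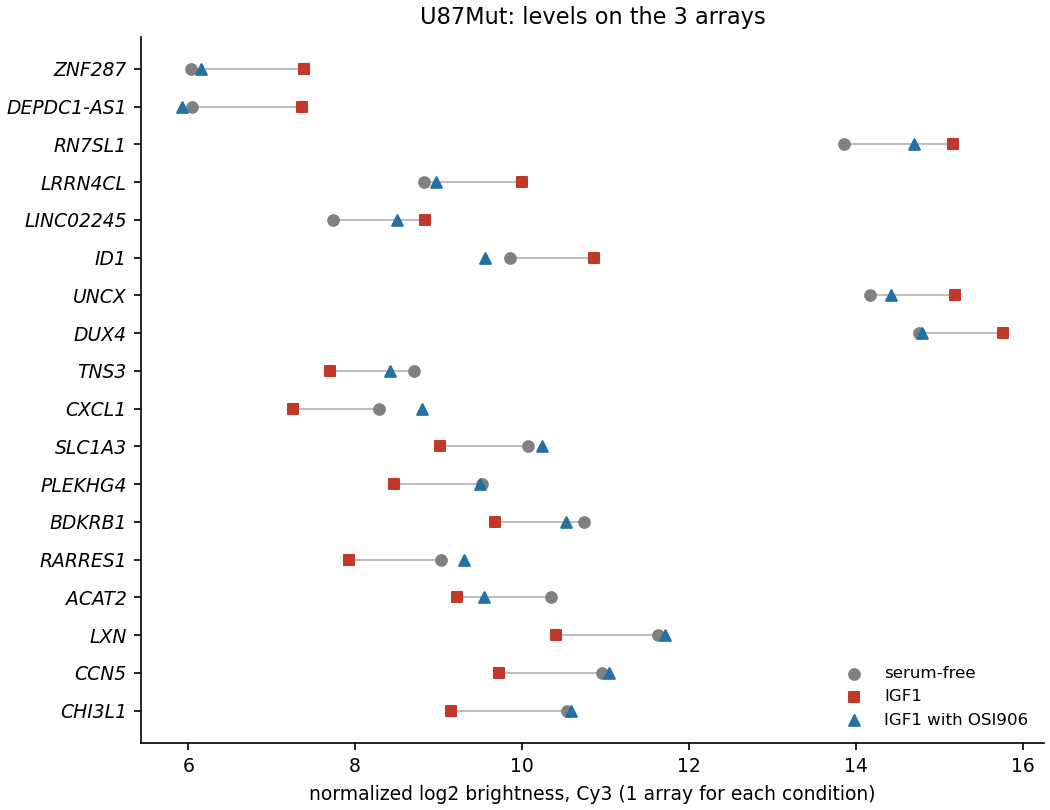
Normalized log2 brightness of 18 named genes of U87Mut in Cy3 on each of the 3 arrays (horizontal axis), 1 point for each condition and no error bars because each condition was hybridized 1 time. For CHI3L1, CCN5 and LXN the IGF1 point lies left of the other points, which nearly coincide, and for ID1 it lies right of them.

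Genes of cholesterol synthesis and uptake were lower with IGF1 almost throughout. All 26 genes of the list were measured, 24 were below 0 (92.3%, beside 53.3% of all named genes), and the median was -0.36 against -0.01 for all named genes. At -0.5 or less were 3 of the 26, beside 1.65% of all named genes, and none was at 0.5 or more. ACAT2, the cytosolic acetoacetyl-CoA thiolase at the head of the pathway, had levels of 10.34 in serum-free medium, 9.21 with IGF1 and 9.54 with IGF1 and OSI906, a difference of -1.13. Its spot lay in column 164 of the array, next to the columns of ZNF287 and DEPDC1-AS1, and whether the place played a part was not tested. DHCR7, the last enzyme of one branch to cholesterol, had 13.11, 12.47 and 12.30 (difference -0.64). STARD4, a carrier of sterols, had 8.49, 7.89 and 8.03 (difference -0.60). In these genes serum-free medium had the highest level of the 3 arrays.

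The same held for other enzymes of the pathway. HMGCS1, which makes HMG-CoA, had levels of 8.60, 8.11 and 7.87 in the order of serum-free medium, IGF1, and IGF1 with OSI906. SQLE, squalene epoxidase, had 11.11, 10.75 and 10.49 in that order, and IDI1, an isomerase of isoprenoid units, had 10.14, 9.65 and 9.37. The median over the list was -0.48 for IGF1 with OSI906 minus serum-free, which uses the same serum-free array as the IGF1 response. In U87WT the list had a median of 0.04 for IGF1 minus serum-free. SREBF2, which encodes the factor that drives these genes, differed by -0.33 in U87Mut, and SCAP, its escort, was the highest of the list at 0.04. Relative to the median of all named genes, the median of the list was between -0.48 and -0.33 in all 14 alternatives.

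**Figure D3:**
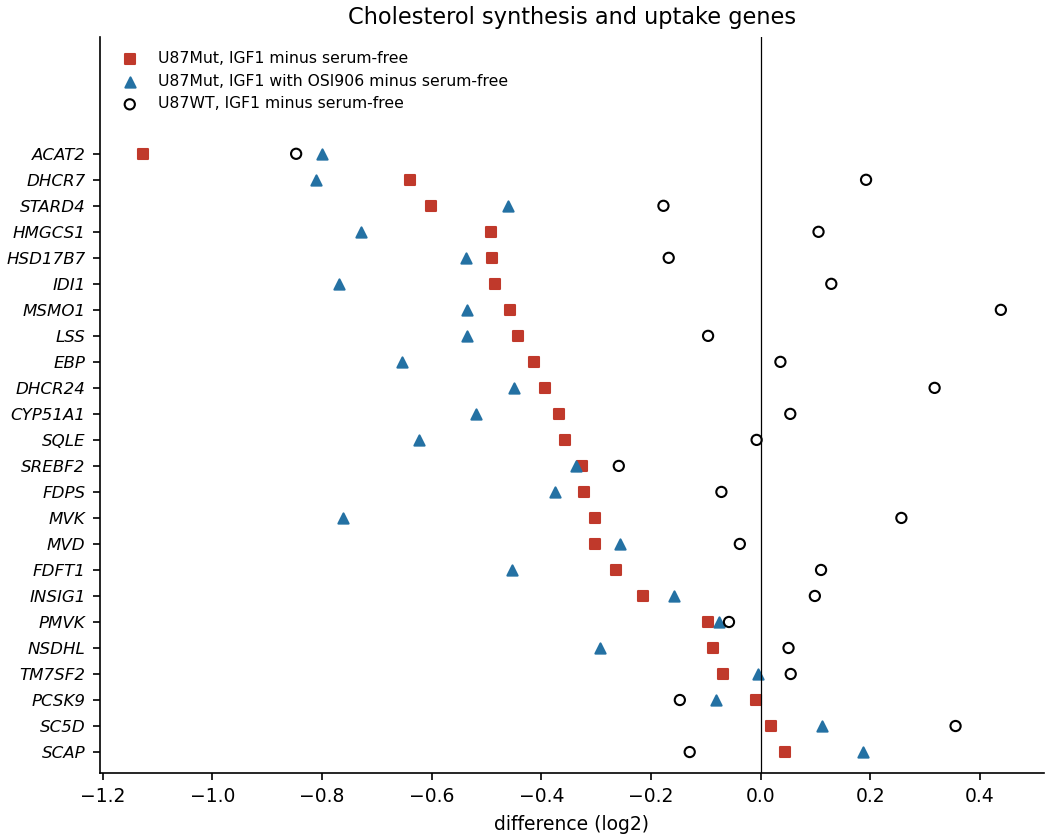
Differences in log2 (horizontal axis) of 24 of the 26 cholesterol synthesis and uptake genes, for IGF1 minus serum-free in U87Mut (red squares) and U87WT (open circles) and for IGF1 with OSI906 minus serum-free in U87Mut (blue triangles). All red squares but those of SC5D and SCAP lie below 0, and the open circles lie on both sides of 0.

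Promoters are shown for genes from the ends of these results, 250 bases before the start of the gene from RefSeq (GRCh38.p14). DHCR7 (chr11:71448394-71448643, minus strand) and HMGCS1 (chr5:43313413-43313662, minus strand) stand for the cholesterol list. CHI3L1 (chr1:203186705-203186954, minus strand) was the lowest named gene and ID1 (chr20:31605039-31605288, plus strand) a high one. Capitals mark matches on either strand to CCAAT, which NF-Y binds, or, in CHI3L1, to TTTGAAA, the cell cycle homology region.
DHCR7: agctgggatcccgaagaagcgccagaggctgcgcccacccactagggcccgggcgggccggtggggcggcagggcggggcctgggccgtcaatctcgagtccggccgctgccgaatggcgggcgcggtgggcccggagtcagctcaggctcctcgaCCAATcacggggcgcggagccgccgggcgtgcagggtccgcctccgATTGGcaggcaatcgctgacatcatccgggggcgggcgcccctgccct
HMGCS1: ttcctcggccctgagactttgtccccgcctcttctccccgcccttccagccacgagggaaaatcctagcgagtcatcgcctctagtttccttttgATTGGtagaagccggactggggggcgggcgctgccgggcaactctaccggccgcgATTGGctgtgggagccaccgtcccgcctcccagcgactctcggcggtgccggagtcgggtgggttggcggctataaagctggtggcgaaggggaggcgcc
CHI3L1: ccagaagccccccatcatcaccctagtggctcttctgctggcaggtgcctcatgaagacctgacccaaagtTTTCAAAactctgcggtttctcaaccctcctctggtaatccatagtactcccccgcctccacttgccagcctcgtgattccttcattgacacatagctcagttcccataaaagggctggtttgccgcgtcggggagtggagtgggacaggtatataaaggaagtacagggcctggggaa
ID1: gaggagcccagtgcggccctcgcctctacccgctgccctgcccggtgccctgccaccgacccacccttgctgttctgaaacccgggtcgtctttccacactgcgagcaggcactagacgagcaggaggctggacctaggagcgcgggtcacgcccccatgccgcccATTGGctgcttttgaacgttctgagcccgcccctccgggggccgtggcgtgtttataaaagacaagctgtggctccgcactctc

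DHCR7 and HMGCS1 each hold CCAAT in 2 places. Of the cholesterol genes with a promoter at hand, 15 of 19 held CCAAT, or 78.9%, against 33% of all 27305 promoters of the same length. The sterol element TCACCCCAC was in 1 of the 19. Genes at -0.5 or less held CCAAT in 37.5% of 208 promoters and genes at 0.5 or more in 27% of 100. The share over the 12179 promoters of measured genes was 34.8%, and the DNA replication list, with a median difference near 0, held CCAAT in 57.6% of 33. The FOXO motif GTAAACA was in 1.44% of the lower genes, 2% of the higher and 2.1% of measured genes. CACGTG (E-box) was in 2.88%, 8% and 8.47% in that order, TGACGTCA (CRE) in 0.481%, 3% and 2.68%, and TGAGTCA (AP-1) in 4.81%, 5% and 3.05%. TTTGAAA was in 5.29%, 5% and 3.63%. TTTCGCGC (E2F) was in none of the lower or higher genes and in 0.821% of measured genes. Of all 27305 promoters, 2.98% held the FOXO motif, 6.49% the E-box, 1.77% the CRE, 4.16% the AP-1 motif, 5.51% TTTGAAA, 0.348% the sterol element and 0.469% the E2F motif. Shares over so few promoters were not tested. A promoter entered a share if it held any match on either strand, however many. A match says only that the letters are there.

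Of 17 fatty acid synthesis genes 16 were below 0 (94.1%, beside 53.3% of all named genes), and the median was -0.25. At -0.5 or less was 1 of the 17, beside 1.65% of all named genes. FASN, fatty acid synthase, had levels of 10.45 in serum-free medium, 9.94 with IGF1 and 9.88 with IGF1 and OSI906 (difference -0.51), and was the lowest of the list. SCD, the stearoyl-CoA desaturase, had 9.33, 8.94 and 9.69, so with OSI906 it was above serum-free medium. SCD5 was highest at 0.06, with -0.05 by its other probe. Among glycerolipid and lipid droplet genes the median of 29 was -0.07. LPIN1, a phosphatidate phosphatase, was lowest by its brightest probe at -0.67, but its probes ranged up to 0.02, and HILPDA was highest at 0.28. DGAT1, which makes triglycerides, differed by -0.19, 0.03 and -0.01 by its 3 probes, PCYT1A of phosphatidylcholine synthesis by 0.11, and ACSL5 by -0.19.

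Of the pathway that carries the IGF1 signal, 27 of 28 genes were measured and 22 were below 0 (81.5%, beside 53.3% of all named genes). The shift was small, with a list median of -0.08 in U87Mut, and 0.05 in U87WT. At -0.5 or less was 1 of the 27, beside 1.65% of all named genes, and none was at 0.5 or more. IRS1, the adaptor of both receptors, had levels of 8.14 in serum-free medium, 7.51 with IGF1 and 8.49 with IGF1 and OSI906 (difference -0.62), and -0.33 by its other probe. IGF1R had levels of 8.72, 8.71 and 8.42, a difference of 0.00 after rounding. Whether its 1 probe reads the transgene as well as the cells' own gene cannot be told, since probe sequences were not examined. INSR had 8.52, 8.43 and 8.83 (difference -0.10). The adaptor GRB2 was the highest of the list at 0.32.

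Of 12 ligand and binding protein genes 8 were measured, with a median of -0.27. STC2, a secreted glycoprotein that inhibits the protease PAPPA, had levels of 8.02, 7.26 and 8.85 (difference -0.76). IGFBP7 had 11.91, 11.31 and 11.68 (difference -0.60). These 2 genes were past -0.5, beside 1.65% of all named genes at -0.5 or less, and were lowest on the IGF1 array. IGFBP4 was highest of the list at 0.26. IGF1 itself was dim at 6.09 in serum-free medium and IGF2 was not above background.

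FOXO factors and FOXO-induced genes had a median of -0.18 over 27 genes, with 22 below 0 (81.5%, beside 53.3% of all named genes). Such a share is not particular to this list or to that of the IGF1 pathway. Below 0 were 83.8% of the interferon-stimulated and antigen presentation genes and 78.8% of the pyruvate dehydrogenase and TCA cycle genes, but 36.7% of the ERK feedback and immediate early genes. At -0.5 or less was 1 of the 27, which is near the 1.65% of all named genes. SOD2, the mitochondrial superoxide dismutase, had levels of 12.45, 11.90 and 12.53 (difference -0.55). TXNIP, which restrains glucose uptake, had 10.64, 10.22 and 11.30, a difference of -0.41 in U87Mut beside -2.29 in U87WT. The median of the list was nearly the same in the clones, -0.175 in U87Mut and -0.179 in U87WT. IRS2 differed by -0.22, and ZFP36L2 was highest at 0.36. The list as a whole lay a little under the median of all genes, by -0.16, and was on that side in all 14 alternatives (-0.28 to -0.13).

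Several matrix genes were lower with IGF1. Of 24 matrix glycoproteins and crosslinkers measured, 7 were at -0.5 or less, beside 1.65% of all named genes, and 1 was at 0.5 or more, with a median of -0.25. NID2, a nidogen of basement membranes, had levels of 8.99 in serum-free medium, 8.29 with IGF1 and 9.03 with IGF1 and OSI906 (difference -0.70). SPARC, which binds collagen, had 12.50, 11.88 and 12.57 (difference -0.63). LAMB1, a laminin chain, had 11.74, 11.10 and 11.64 (difference -0.63). The others past -0.5 were LAMA4, VCAN, THBS2 and DCN, with 1 probe of LAMA4 at 0.00 and the dimmer probe of THBS2 at -0.06. TNC, the glioma matrix protein tenascin C, went the other way with 10.89, 11.50 and 10.68 (difference 0.62). The median over the list for IGF1 with OSI906 minus serum-free was 0.02. In U87WT the list had a median of -0.53 for IGF1 minus serum-free, further below 0 than in U87Mut.

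COL8A1 was the lowest of 21 collagen genes, with levels of 9.41, 8.44 and 9.23 (difference -0.97), while COL16A1 was highest at 0.41, with 0.09 by its other probe, and the median of the collagens was -0.07. PLAT, tissue plasminogen activator, was the lowest of 23 proteases and inhibitors at -0.85 and ADAMTS1 highest at 0.36. Of inflammatory cytokines and chemokines 3 of 23 were at -0.5 or less, CXCL1, IL1B and CCL2, beside 1.65% of all named genes, and the median was -0.19. IL1B had levels of 9.33 in serum-free medium, 8.42 with IGF1 and 10.79 with IGF1 and OSI906 (difference -0.91), so the OSI906 array was the highest of the 3. Of the measured chemokines next to CXCL1 in the genome, CXCL8 differed by -0.19, CXCL5 by 0.13, CXCL3 by 0.21 and CXCL2 by 0.25.

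Antioxidant genes lay on both sides of 0. Of 30 measured, 13 were above 0 and 17 below, 2 were at 0.5 or more (beside 0.989% of all named genes) and 1 at -0.5 or less (beside 1.65%), and the median was -0.03. SRXN1, sulfiredoxin, had levels of 10.93 in serum-free medium, 11.77 with IGF1 and 11.34 with IGF1 and OSI906 (difference 0.84). TXNRD1, thioredoxin reductase, had 10.13, 10.87 and 10.54 (difference 0.74). HMOX1 at 0.48 and GCLM at 0.45 came next, and the superoxide dismutase SOD2 and catalase CAT lay at the low end of the list at -0.55 and -0.42.

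In glucose metabolism, SLC2A1, the glucose transporter GLUT1, had levels of 10.03 in serum-free medium, 10.49 with IGF1 and 9.58 with IGF1 and OSI906, a difference of 0.46 and the highest of 30 genes of transport and glycolysis. HK2, hexokinase 2, had a difference of 0.43 by its brighter probe and 0.00 by the other. PKM was lowest at -0.37, LDHA differed by -0.05 and GAPDH by 0.05, the median of the list was -0.04, and no gene of it passed 0.5 in size. Of hypoxia and angiogenesis genes 2 of 30 were at 0.5 or more, beside 0.989% of all named genes. They were NDRG1 (0.57) and VEGFA (0.54 by its brighter probe and -0.01 by the other), and VEGFC was at -0.66.

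Growth and cycle genes varied little. The medians were 0.04 over 37 DNA replication genes, -0.01 over 49 mitosis genes and 0.06 over 38 genes of ribosome biogenesis, and 66 genes of the respiratory complexes had -0.05 with none past 0.5 in size. The lowest and highest were RRM2 (-0.55) and ORC1 (0.29) in replication, INCENP (-0.36) and CCNB2 (0.36) in mitosis, TSR1 (-0.69, and 0.04 by its other probe) and BYSL (0.40) in ribosome biogenesis, and COX4I1 (-0.36) and ATP5ME (0.22) in respiration. TBP, a reference gene of the study, differed by -0.05. CCND1, cyclin D1 and a usual target of ERK, was the highest of 30 ERK feedback and immediate early genes at 0.41, with levels of 10.01, 10.42 and 10.39. PHLDA1 was the lowest of them at -0.61. Among 38 genes of the ATF4 program the median was -0.01 in U87Mut and 0.29 in U87WT. TRIB3, a pseudokinase that ATF4 induces, was at 0.51 and STC2 at the low end.

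The lists not yet named had medians between -0.19 and 0.06. They were Wnt pathway genes (-0.19, lowest LGR4 at -0.63 and highest LEF1 at 0.16), integrins and adhesion genes (-0.14, ITGB4 at -0.42 and NCAM1 at 0.23, with a probe of NCAM1 at -0.38), lysosome and autophagy genes (-0.13, progranulin GRN at -0.81 and MAP1LC3B at 0.23) and interferon-stimulated genes (-0.13, with ISG20 highest at 0.70). Cytosolic ribosomal proteins had -0.10 (RPL7A at -0.82 and RPL34 at 0.33) and genes of pyruvate dehydrogenase and the TCA cycle -0.10 (pyruvate carboxylase PC at -0.72 and PDK1 at 0.30). GRN and RPL7A are among the brightest probes, where the spread over probes was largest. In the glial and mesenchymal list of 20 genes CHI3L1 and SLC1A3 were lowest and VIM (vimentin) highest at 0.71, with a median of -0.08. Fatty acid oxidation (-0.07, HADH at -0.53 and ECHS1 at 0.18), cell cycle inhibitors and p53 genes (-0.06, FAS at -0.58, with probes up to -0.20, and GDF15 at 0.42) and TGF-beta genes (-0.04, TGFBR2 at -0.47 and ID1 highest) were nearer to 0. So were replication-dependent histones (0.04, H1-1 at -0.96 and H4C2 at 0.49), proteasome subunits (0.03, PSMD2 at -0.65 by its brighter probe and 0.08 by the other, and PSMD12 at 0.31), growth factor receptors (0.04, PDGFRB at -0.46 and -0.11 by its probes, and TGFA at 0.31) and chaperones (0.06, CALR at -0.36 and HSPA5 at 0.61).

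**Figure D4:**
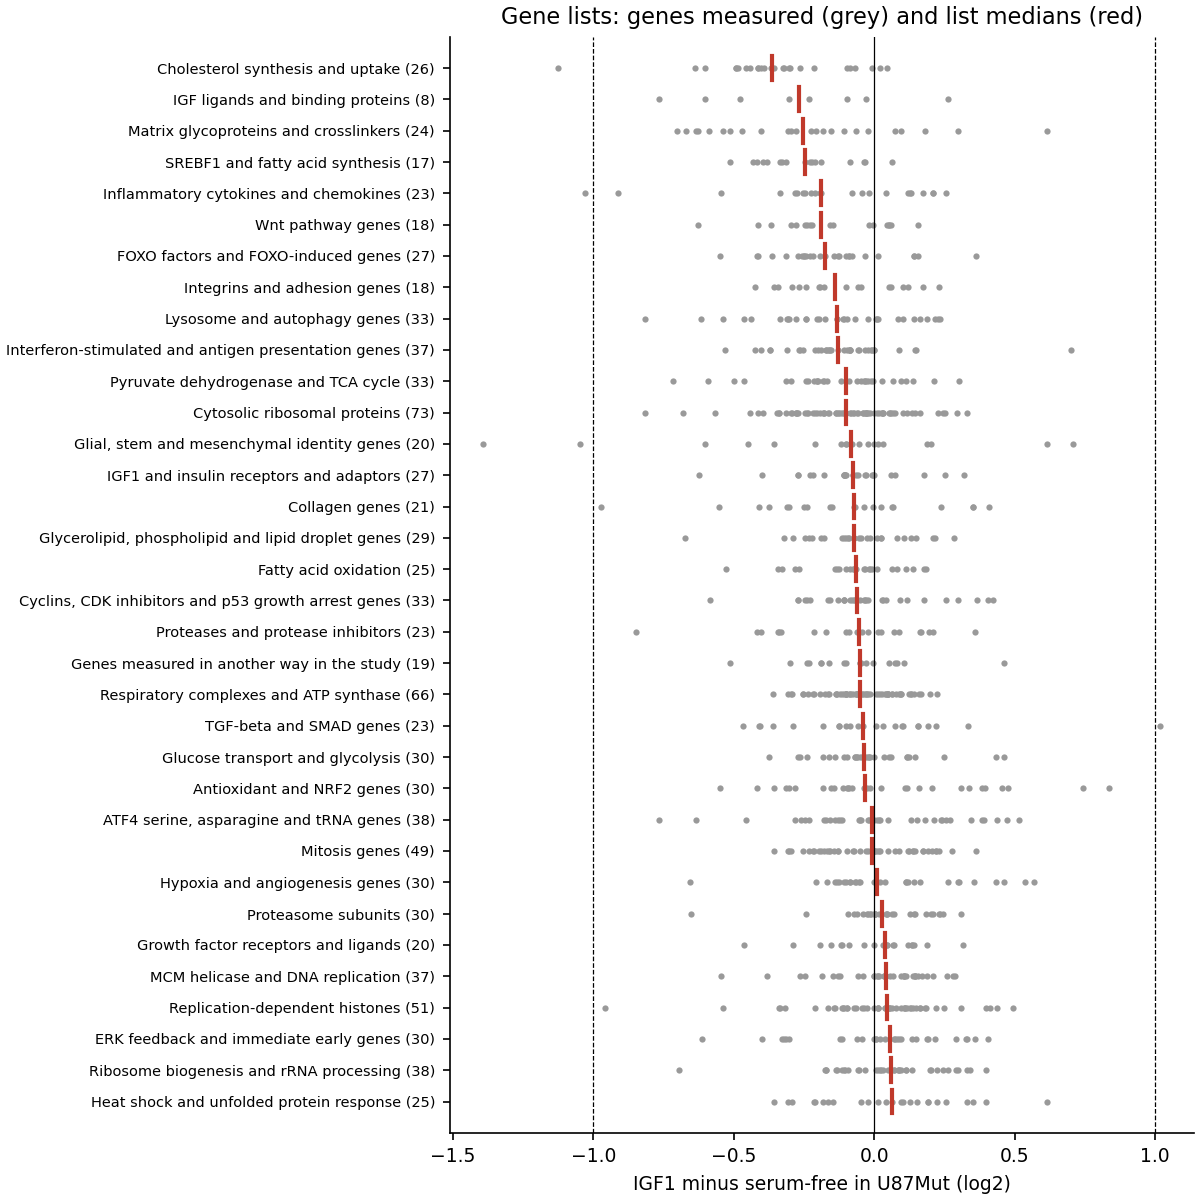
IGF1 minus serum-free differences in log2 (horizontal axis) of the genes of 34 lists in U87Mut, with the number of genes measured in brackets, 1 grey point for each gene and a red bar at the median of the list. Cholesterol genes have the lowest median, -0.36, and the red bars of most lists lie within 0.2 of 0.

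The U87WT channel of the same arrays gives the response of the clone whose receptor the labels call nuclear. The probes share the spots with U87Mut but not the RNA, and the dye goes with the clone, so clone and dye cannot be told apart. Over 27739 probes measured in both clones and free of marked spots, the SD of the difference was 0.19 in U87Mut and 0.23 in U87WT, and Pearson's r across probes was 0.33, as a description of these arrays. At 0.5 or more were 293 probes in U87Mut (1.06%) and 407 in U87WT (1.47%), and 47 were shared, 16% of the U87Mut list and 11.5% of the U87WT list. At -0.5 or less were 336 (1.21%) and 713 (2.57%), and 133 were shared, 39.6% and 18.7% of these lists. The difference between these shares was not tested.

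Of the genes named above, CHI3L1 (-0.92 in U87WT), CCN5 (-1.78), LXN (-0.70), CXCL1 (-1.14), SLC1A3 (-0.88), COL8A1 (-0.96) and STC2 (-0.80) were lower with IGF1 in both clones. SLC2A1 was higher in both by nearly the same, 0.46 and 0.45. RN7SL1 at -0.51, VIM at -0.25 and ID1 at -0.25 in U87WT were of the opposite sign to U87Mut, and so was BDKRB1 at 0.30. The probes of RN7SL1 and VIM had a brightness over 13, where the spread over probes in U87Mut was largest. PLAT was at -0.01 and RPL7A at -0.10 in U87WT. No difference between the clones was tested.

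**Figure D5:**
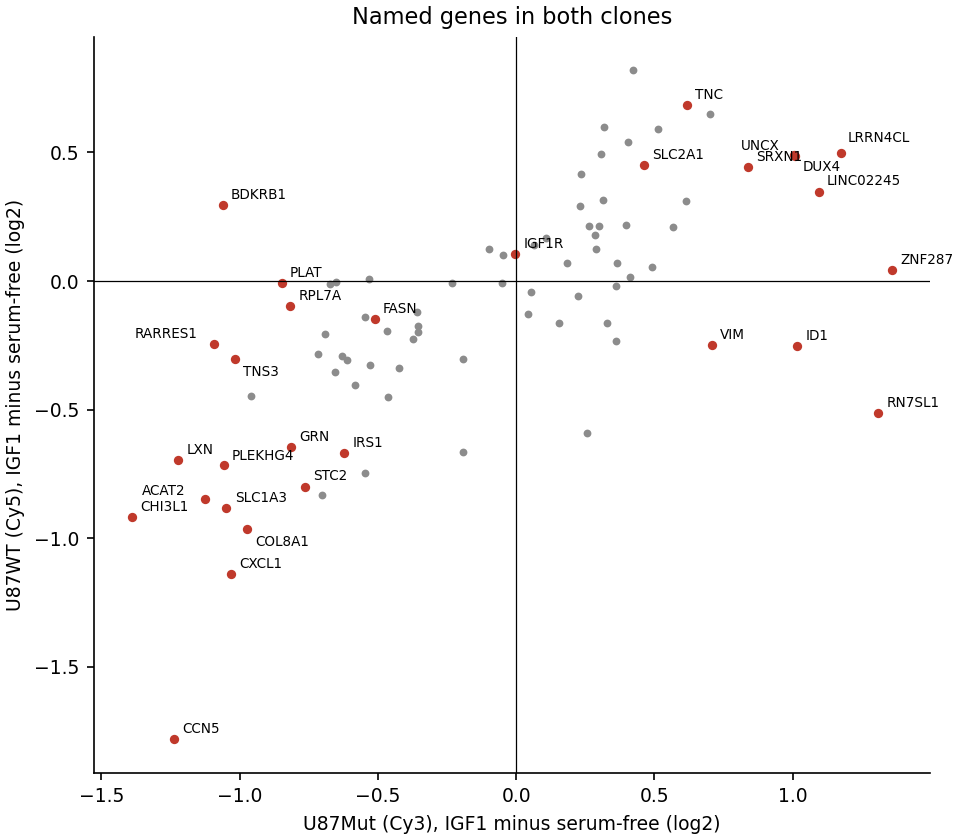
IGF1 minus serum-free difference in log2 of the named genes without marked spots and measured in both clones, U87Mut (Cy3) on the horizontal axis and U87WT (Cy5) on the vertical axis, with 1 point for each gene. CHI3L1, CCN5 and CXCL1 lie at the lower left, and RN7SL1 (1.31 and -0.51) and ID1 (1.02 and -0.25) at the lower right.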

How the data were processed

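RNA of U87Mut 5 (Cy3) and U87WT 5 (Cy5) was hybridized together to Agilent 2-color arrays, 1 for each condition and all on 1 slide. The deposited intensity values are medians over the pixels of a spot and over the background beside it, per the file headers made by Agilent Feature Extraction 12.0.3.1 and not normalized. A deposited table of log2 ratios between the clones was not used, since it does not hold the channels apart. Background was corrected in each channel with normexp of limma 3.58.1 in R 4.3.3 (offset 50, fitted without spots marked not uniform), and all 6 channels were quantile-normalized. Adding an offset draws changes of dim probes toward 0, and the scripts were tested on simulated data. Control spots were left out (2075 of 62976), the spots of a probe were averaged in log2, and a probe entered when well above background in Cy3 on both arrays (over 50% of its spots). Names came from RefSeq transcripts (GRCh38.p14), for 34892 probes. A gene has the value of its brightest probe. No spot was saturated. The number of arrays limits the precision.

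Named were the up to 15 highest and 15 lowest genes at 1 or more in size with 1 sign over all passing probes (10 and 10 met this), in each list the genes at 1 or more and the highest and lowest gene, and 12 genes that the study measured in another way, of which 11 passed. Other genes were chosen after their values were seen. Some genes that the rule or a list gives are not reported here. The members, lists and limits were chosen with earlier results of these data known. With 1 array for each condition no test was made. Alternatives of background, normalization, filter and limit are given in the closing section.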

Additional observations from a re-analysis of the deposited data

Results flagged for a closer look

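ID1, RN7SL1 and BDKRB1 passed 1 in size in U87Mut and had the opposite sign in U87WT on the same spots. The response of U87Mut minus that of U87WT was 1.27 for ID1 (1.02 and -0.25), 1.83 for RN7SL1 (1.31 and -0.51) and -1.36 for BDKRB1 (-1.06 and 0.30). RN7SL1 had a brightness over 13, where the spread over probes in U87Mut was largest and 5.07% of probes were at 0.5 or more. With 1 array for each condition the difference between the clones was not tested, and the dye goes with the clone.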

How the results depend on the processing

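The counts of 17 probes higher and 16 lower at 1 depend on how dim signal is treated and on marked spots. Without background correction 29 were higher. Subtraction with a floor of 1 gave 174 and 247, normexp with an offset of 0 gave 57 and 91, and an offset of 20 gave 27 lower. The processed signal of the scanner software gave 177 and 166, and its background-subtracted signal, added after the data were seen, gave 204 and 179. Without normalization between channels 10 were higher and 325 lower, where the median of all named genes was -0.41. All probes without a filter gave 29 higher, and marked spots left out gave 9 higher. Limits of 0.5 and 1.5 gave 308 and 344, and 8 and 4, and 0.5 without marked spots, added after the data were seen, gave 300 and 338. Of 20 named genes at 1 or more, all 20 kept their sign under every alternative and 8 stayed past 1 in each that measured them, namely DND1, ZP1, ZNF287, DEPDC1-AS1, ACAT2, LXN, CCN5 and CHI3L1. The spots of DND1 and ZP1 were marked, and those of ZNF287, DEPDC1-AS1 and ACAT2 lay in array columns 163, 162 and 164. RN7SL1, UNCX and DUX4 were at 0.58, 0.29 and 0.24 without normalization between channels. The cause was not tested. A background fit on all spots moved TNS3, CXCL1, SLC1A3, PLEKHG4 and RARRES1 to between -0.96 and -0.85. Mean signals were not in the files, so that alternative was not run. No paired analysis was possible because each condition has 1 array.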

Other observations

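The families of genes below were chosen after their values were seen, and not all of them had levels that moved together. Small proline-rich proteins 2 are epidermal proteins from 1 gene cluster with near-identical sequences. Their 5 measured genes were all at 0.5 or more in U87Mut (beside 0.989% of all named genes), from 0.62 for SPRR2C to 0.81 for SPRR2F. SPRR2F had levels of 7.64 in serum-free medium, 8.45 with IGF1 and 7.43 with IGF1 and OSI906, and the dimmer probe of SPRR2A differed by 0.20. In U87WT the median of the family was 1.61 against 0.74 in U87Mut. SPRR1A, next to them in the genome, differed by 0.26. The probes of so similar genes can bind each other's RNA.

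Of 6 SNAR genes, short noncoding RNAs made by RNA polymerase III, 4 were at 0.5 or more in U87Mut (beside 0.989% of all named genes), with a median of 0.64, and the median in U87WT was -0.22. All of them but SNAR-G1 had levels over 13, where 5.07% of probes were at 0.5 or more and the spread was largest, and their sequences are near-identical. RMRP, the RNA of a nuclease, was at 0.72 and the variant U1 RNA RNVU1-18 at 0.73, and in U87WT these were at -0.23 and -0.53. Medians were 0.11 over 91 H/ACA snoRNAs and 0.09 over 135 C/D snoRNAs. Metallothioneins had a median of -0.12 over 8 genes, between -0.73 for MT2A, the brightest of the named probes, and 0.68 for MT1F.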
